A study of Mus musculus with 6 samples.

Results

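The IL-6 family was followed here through 10 genes of mouse cortical bone: the ligands *Il6*, *Lif*, *Il11* and *Osm*, the receptor chains *Il6ra*, *Il6st*, *Lifr*, *Il11ra1* and *Osmr*, and the inhibitor *Socs3*. They were chosen by gene symbol, and every probe listed under one of these symbols was kept, which gave 22 of the 45281 probes and 10 of the 31508 symbols on the array. The *ex vivo* model was cortical bone tubes, the shafts of tibia and femur of C57BL6 mice that were 3 months old by the sample labels and between 2 and 3 months by the methods of the study. Marrow was flushed out, the tubes were digested with collagenase and trypsin to remove surface cells, and the tubes were kept overnight in αMEM with fetal calf serum. The control group (Ctr, 3 arrays) was then cultured without hormone, and the PTH group (Pth, 3 arrays) received 250 nM PTH 1-34, the amino-terminal fragment of parathyroid hormone, for 24 hours. Both groups shared strain, digestion and culture. RNA was pooled from about 10 bones of 4 to 5 mice, and the labels do not say whether the 3 arrays of a group came from separate preparations, so the p-values measure the spread between arrays, which may be technical.

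Cytokines of this family signal through gp130, the receptor chain encoded by *Il6st*. IL-6 and IL-11 first bind a private chain, IL-6Rα or IL-11Rα, and then engage gp130, whereas leukemia inhibitory factor and oncostatin M bring gp130 together with LIFR or OSMR. The bound receptor activates Janus kinases and STAT3, and SOCS3 is made in turn and shuts the receptor off. In bone, cells of the osteoblast lineage make and receive several of these cytokines, which act on bone formation and, through RANKL, on osteoclast formation.

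The promoter windows of the called genes *Il11* and *Lifr*, of the ligand *Il6* and of the feedback inhibitor *Socs3* are shown so that the letters ahead of each start can be read beside the changes given further on. Each window holds the 250 bases before a RefSeq start site on GRCm38.p6, written 5′ to 3′ on the strand of the gene, with motif matches in capitals. *Il11* and *Lifr* have a pair of start sites each, and which of them gives the transcript a probe reads is not given in the sources used here.
Il11 window 1, chr7:4778142-4778391, minus strand: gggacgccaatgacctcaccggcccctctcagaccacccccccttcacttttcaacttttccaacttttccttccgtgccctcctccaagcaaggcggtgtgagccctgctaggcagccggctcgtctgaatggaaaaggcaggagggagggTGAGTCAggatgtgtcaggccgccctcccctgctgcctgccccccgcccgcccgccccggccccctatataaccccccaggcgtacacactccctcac
Il11 window 2, chr7:4782858-4783107, minus strand: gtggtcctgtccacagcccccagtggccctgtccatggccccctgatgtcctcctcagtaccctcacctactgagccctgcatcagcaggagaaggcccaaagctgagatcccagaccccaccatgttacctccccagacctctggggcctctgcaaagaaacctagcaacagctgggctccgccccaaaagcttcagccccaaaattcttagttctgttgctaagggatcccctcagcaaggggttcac
Lifr window 1, chr15:7129322-7129571, plus strand: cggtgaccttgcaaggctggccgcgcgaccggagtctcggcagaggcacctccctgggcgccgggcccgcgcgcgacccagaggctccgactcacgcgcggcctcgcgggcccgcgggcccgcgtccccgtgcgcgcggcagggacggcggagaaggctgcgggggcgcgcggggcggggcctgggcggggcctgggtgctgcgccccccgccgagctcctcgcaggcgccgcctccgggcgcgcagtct
Lifr window 2, chr15:7140292-7140541, plus strand: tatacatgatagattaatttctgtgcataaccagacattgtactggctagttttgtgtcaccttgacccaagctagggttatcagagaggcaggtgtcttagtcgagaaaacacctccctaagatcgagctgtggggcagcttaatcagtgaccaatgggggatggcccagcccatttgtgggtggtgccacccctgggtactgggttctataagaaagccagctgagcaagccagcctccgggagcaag
Il6 window 1, chr5:30012864-30013113, plus strand: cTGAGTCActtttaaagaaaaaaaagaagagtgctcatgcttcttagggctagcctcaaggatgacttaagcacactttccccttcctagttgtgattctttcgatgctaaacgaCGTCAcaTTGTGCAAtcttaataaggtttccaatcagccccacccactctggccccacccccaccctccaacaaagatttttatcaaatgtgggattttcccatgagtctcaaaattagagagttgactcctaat
Socs3 window 1, chr11:117969367-117969616, minus strand: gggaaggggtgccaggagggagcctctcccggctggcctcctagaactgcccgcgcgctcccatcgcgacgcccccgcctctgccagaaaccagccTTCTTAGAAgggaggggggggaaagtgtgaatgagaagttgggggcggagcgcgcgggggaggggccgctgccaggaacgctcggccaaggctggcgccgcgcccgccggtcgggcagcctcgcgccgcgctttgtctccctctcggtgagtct

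The search covered 6 motifs on both strands: the cAMP response element TGACGTCA, its half-site TGACG (which every full element also holds), the AP-1 site TGANTCA, the STAT site TTCNNNGAA, the C/EBP site TTGCNNAA and the RUNX site TGTGGT. In *Il11* window 1 an AP-1 match, TGAGTCA, began 98 bases before the start, and window 2 held none of the motifs. Neither *Lifr* window held a motif, and the first of them was 82.4% G and C against 50.8% in the second. The *Il6* window held an AP-1 match 249 bases and a cAMP half-site (CGTCA on this strand) 135 bases before the start. It also held a C/EBP match 128 bases before the start, which reads TTGTGCAA on this strand and matches the motif on the other. The *Socs3* window held a STAT match, TTCTTAGAA, 154 bases before the start. Of the 10 genes 9 had a window, 12 windows in all and 6 of them with a motif; *Osm* had none. Among the windows not printed, *Lif* held an AP-1 and a RUNX match, *Il6ra* a cAMP half-site and the second *Il11ra1* window a RUNX match, and those of *Il6st* and *Osmr* held none. Over all 32851 windows of this length, 1.55% held the full cAMP element, 17.8% the half-site, 6.75% an AP-1, 7.02% a STAT, 9.56% a C/EBP and 14% a RUNX match, so single matches are common. A match describes the letters and is not evidence of binding.

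Signals are given on the log2 scale after background correction and quantile normalization, and a probe counted as above background on an array when its detection p was under 0.05. Probes that exceeded background on 3 or more of the 6 arrays were tested with limma, 16214 in all. A gene was read by its brightest tested probe, and to be called it needed both an adjusted p under 0.05 and a change of 1.5-fold or more. Arrays had median deposited signals between 111 and 129, with 34.2% to 38.4% of probes above background. All 10 genes had a tested probe. Of their 22 probes 14 were tested; 11 exceeded background on all 6 arrays, and 6 never did.

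PTH raised *Il11* and lowered *Lifr*, and the other 8 genes were not called. Fewer cells of a type and less RNA per cell cannot be told apart in RNA from whole bone tubes. Thus 1 of 10 genes was called higher, where 0.685% of the 11979 genes tested were (82 genes), and 1 was called lower, where 1.04% were (125 genes). In either direction 1.73% of genes were called. Counted by probe, 2 of the 14 tested were called, against 1.61% of all tested probes. The 10 genes were chosen with earlier results of these data known. The shares therefore do not test whether the family responded more than other genes. Under median scaling the table-wide split moved from 39.6% to 60.6% of called genes higher, while the same pair, *Il11* higher and *Lifr* lower, was called among the 10. The groups did not overlap for 3 of the 10 genes (*Il11*, *Osm* and *Lifr*), and for 21.9% of all genes. The median log2 difference, PTH minus control, was -0.07 over the 10 genes and 0.01 over all genes tested. By role, the difference was above 0 for all 4 ligands, with a median of 0.22. It was below 0 for all 5 receptors, with a median of -0.20. That of *Il11ra1* was 0.09 under median scaling, and that of *Il6ra* was 0.016 without PTH replicate 1. For the ligands, the second *Lif* probe gave -0.053 without control replicate 1 and -0.097 without PTH replicate 2. The untested *Osm* probe had a lower mean with PTH, 4.72 against 5.23 in control. Outside the 10 genes, 2 of the 6 tested ligands of the family lay above 0, and 1 of the 2 tested receptors. Apart from *Il11* and *Lifr*, the limma intervals of the other 3 ligands and 4 receptors included 0. Over all genes tested, 6083 of 11979 differences were above 0. Whether the sign went with role was not tested.

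**Figure D1:**
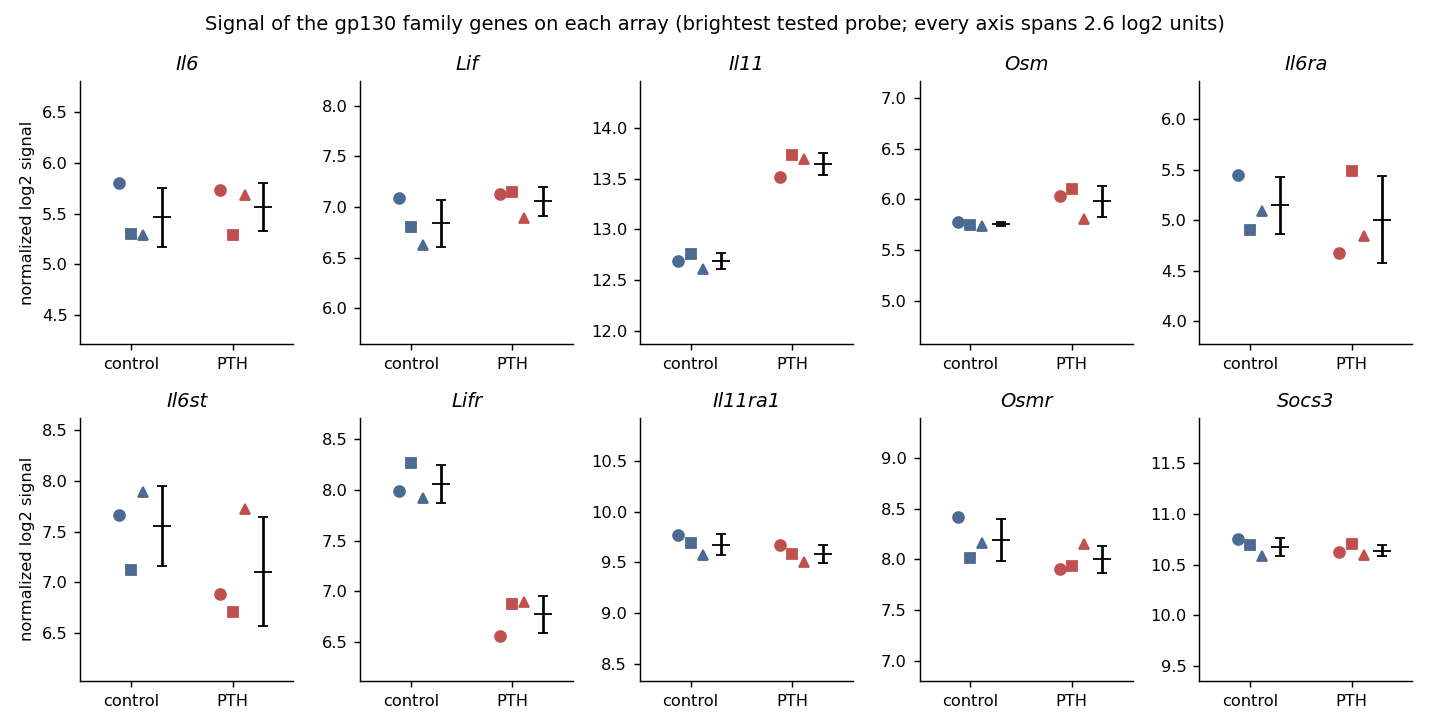
Normalized log2 signal (vertical axis) of the brightest tested probe of each of the 10 genes on the 3 control (blue) and 3 PTH (red) arrays, with the mean and SD as black bars and the replicate number as the shape of the point. The groups lie clearly apart for *Il11*, between 12.61 and 12.76 against 13.52 to 13.73, and for *Lifr*, between 7.92 and 8.27 against 6.56 to 6.89, and narrowly for *Osm*.

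Among the ligands, *Il11* encodes interleukin-11, a cytokine that promotes osteoclast formation in culture through cells of the osteoblast lineage. Its single probe, ILMN_1243862, had deposited signals of 5342, 6827 and 6170 in control tubes and 9996, 13590 and 18210 with PTH. After normalization these became 12.69, 12.76 and 12.61 for control and 13.52, 13.73 and 13.69 for PTH on the log2 scale. All PTH arrays exceeded all control arrays on both scales, and the PTH arrays differed by a larger fold in the deposited signals than after normalization. The mean rose from 12.68 ± 0.07 (SD, n = 3) to 13.65 ± 0.11 (SD, n = 3), a log2 difference of 0.97 (SE 0.12, 95% interval 0.68 to 1.25, limma adjusted p = 0.0123). This was a 1.95-fold rise, with a 95% interval from 1.6-fold to 2.38-fold, and 43 of the 82 genes called higher rose more. Of the 6 fits with 1 array left out, the call ended in those without control replicate 1 (limma adjusted p = 0.0657) and without PTH replicate 2 (0.0592), and the log2 difference lay between 0.92 and 1.03 over all 6. An exact permutation test of a single probe, two-sided over the 20 splits of 6 arrays, cannot give a p below 0.1, the value for both *Il11* and *Lifr*.

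*Il6* encodes interleukin-6, which acts on bone cells through a membrane-bound or a soluble receptor. Its single probe, ILMN_1243601, was above background on all 6 arrays but close to it, with deposited signals of 143, 145 and 128 in control tubes and 135, 130 and 167 with PTH. The normalized log2 signals were 5.80, 5.30 and 5.29 for control and 5.73, 5.29 and 5.68 for PTH. The groups overlapped, and the highest normalized value was on a control array. The log2 difference was 0.10 (95% interval -0.34 to 0.54, limma adjusted p = 0.865), so a rise of up to 1.46-fold or a fall to 0.788 of control lies within the interval.

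*Lif* encodes leukemia inhibitory factor, which acts through LIFR and gp130. Its brighter probe, ILMN_3137291, gave log2 signals of 7.09, 6.80 and 6.63 for control and 7.13, 7.15 and 6.89 for PTH. The lowest PTH array lay below the highest control array, and the log2 difference was 0.22 (95% interval -0.15 to 0.58, limma adjusted p = 0.6). A second probe, ILMN_3137287, gave 0.03 (95% interval -0.35 to 0.40, limma adjusted p = 0.963). The other 2 *Lif* probes were above background on no array.

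*Osm* encodes oncostatin M, a cytokine made largely by myeloid cells that acts through OSMR and, in part, LIFR. Probe ILMN_2919411 gave log2 signals of 5.78, 5.75 and 5.74 for control and 6.03, 6.10 and 5.81 for PTH. All PTH arrays lay above the control arrays, the nearest by little, and the log2 difference of 0.22 (95% interval -0.07 to 0.52) did not pass (limma adjusted p = 0.484). The second probe, ILMN_2543107, was above background on 2 control arrays and on no PTH array and was not tested. Its mean log2 signal was 5.23 in control and 4.72 with PTH, and its groups overlapped.

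Of the receptors, *Lifr* encodes the chain shared by leukemia inhibitory factor, oncostatin M and the other ligands that pair it with gp130, and its loss in mice and people leads to skeletal defects. The brightest probe, ILMN_2829008, gave log2 signals of 7.99, 8.27 and 7.92 for control and 6.56, 6.87 and 6.89 for PTH. The groups were separated by a gap wider than the spread within either. The mean fell from 8.06 ± 0.18 (SD, n = 3) to 6.77 ± 0.18 (SD, n = 3), a log2 difference of -1.29 (SE 0.15, 95% interval -1.65 to -0.93, limma adjusted p = 0.00941). The signal was 2.45-fold lower with PTH, and 25 of the 125 genes called lower fell more. It was called with each array left out in turn, with an adjusted p (limma) between 0.0294 and 0.0456. Without background correction before quantile normalization the log2 difference shrank to -0.82 and was still called.

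The other *Lifr* probes lay on the same side. Probe ILMN_1242960 gave log2 signals of 6.51, 7.02 and 7.24 for control and 5.90, 6.03 and 5.64 for PTH. Its log2 difference of -1.07 (95% interval -1.55 to -0.59) missed the threshold (limma adjusted p = 0.0539). Probe ILMN_2829015 gave 6.50, 6.78 and 6.50 for control and 4.74, 5.54 and 5.75 for PTH, and the lowest of these PTH values was not above background. Its log2 difference was -1.25 (95% interval -1.84 to -0.66, limma adjusted p = 0.0631). Without background correction before quantile normalization the log2 differences of these probes shrank to -0.51 and -0.50, in the order given, both under 1.5-fold though with adjusted p (limma) of 0.00674 and 0.00533. For all 3 probes the PTH arrays were all lower than the control arrays, and the 3 intervals overlapped. Whether the probes read the membrane-bound form, the soluble form or both is not given in the sources used here.

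**Figure D2:**
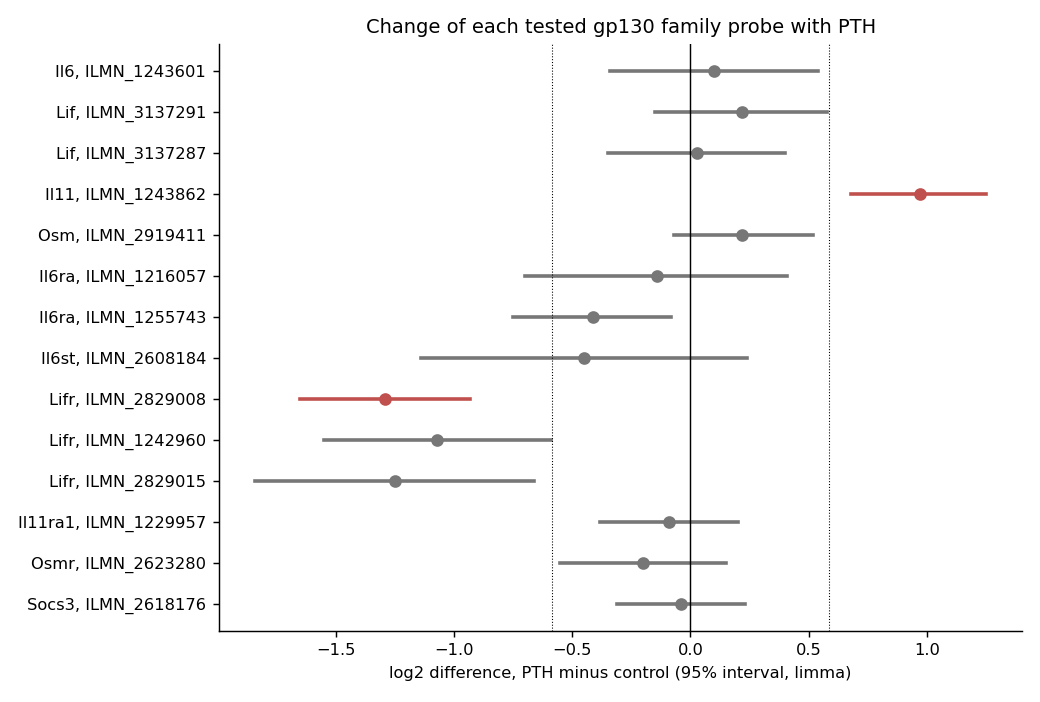
Log2 difference, PTH minus control (horizontal axis), with its 95% interval from limma, for each of the 14 tested probes of the 10 genes. Called probes are red and the dotted lines mark a fold change of 1.5. The *Il11* probe lies at 0.97 and the 3 *Lifr* probes between -1.29 and -1.07, while the intervals of the other probes include 0 except that of *Il6ra* probe ILMN_1255743.

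*Il6st* encodes gp130 itself. Probe ILMN_2608184 gave log2 signals of 7.66, 7.12 and 7.89 for control and 6.88, 6.71 and 7.72 for PTH. On both sides the array numbered 3 was the highest, and PTH replicate 3 lay within the control range. The mean was 7.55 ± 0.40 (SD, n = 3) in control and 7.10 ± 0.54 (SD, n = 3) with PTH, a log2 difference of -0.45 (95% interval -1.14 to 0.24, limma adjusted p = 0.557). This was the widest interval among the brightest probes, and it holds a fall to 0.454 of control as well as a rise of 1.18-fold. A second probe, ILMN_2452075, was above background on no array.

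*Il6ra* encodes the chain that binds interleukin-6. The brightest of its probes, ILMN_1216057, was above background on only 2 control arrays and 1 PTH array, with log2 signals of 5.45, 4.90 and 5.09 for control and 4.68, 5.49 and 4.84 for PTH. The groups overlapped, and the highest value was on PTH replicate 2. The log2 difference was -0.14 (95% interval -0.70 to 0.41, limma adjusted p = 0.839), and 0.016 without PTH replicate 1. Probe ILMN_1255743 was above background on 3 control arrays and 1 PTH array, with log2 signals of 5.18, 5.35 and 5.20 for control and 4.64, 4.80 and 5.05 for PTH. Here every PTH array lay below the control arrays, with a log2 difference of -0.41 (95% interval -0.75 to -0.08), which did not pass over all probes (limma adjusted p = 0.239). The remaining probe, ILMN_2706430, was above background on 1 control array alone and was not tested, so no fold is given for it.

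*Il11ra1* encodes IL-11Rα, the private receptor for the ligand that rose. Probe ILMN_1229957 gave log2 signals of 9.77, 9.69 and 9.57 for control and 9.67, 9.58 and 9.50 for PTH. The groups overlapped, and the log2 difference was -0.09 (95% interval -0.38 to 0.20, limma adjusted p = 0.796), or a fold between 0.769 and 1.14. *Il11ra2*, a near-identical copy whose probe may share transcripts with *Il11ra1*, also gave -0.09 (limma adjusted p = 0.86). The other *Il11ra1* probe was above background on no array.

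*Osmr* encodes the oncostatin M receptor chain. Probe ILMN_2623280 gave log2 signals of 8.42, 8.01 and 8.16 for control and 7.91, 7.94 and 8.15 for PTH. PTH replicate 3 lay within the control range, and the log2 difference was -0.20 (95% interval -0.55 to 0.15, limma adjusted p = 0.614). The other 2 *Osmr* probes were above background on no array.

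*Socs3*, whose product binds gp130 and blocks the kinases bound to it, is a commonly used readout of STAT3 activity. Its probe, ILMN_2618176, gave log2 signals of 10.75, 10.69 and 10.58 for control and 10.62, 10.70 and 10.59 for PTH. All PTH arrays fell within the range of the control arrays. The mean was 10.67 ± 0.09 (SD, n = 3) in control and 10.63 ± 0.06 (SD, n = 3) with PTH, a log2 difference of -0.04 (SE 0.12, limma adjusted p = 0.916), and 0.114 under median scaling. The 95% interval of the fold ran from 0.804 to 1.18, so a change of the size seen for *Il11* or *Lifr* lies outside it under this normalization.

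**Figure D3:**
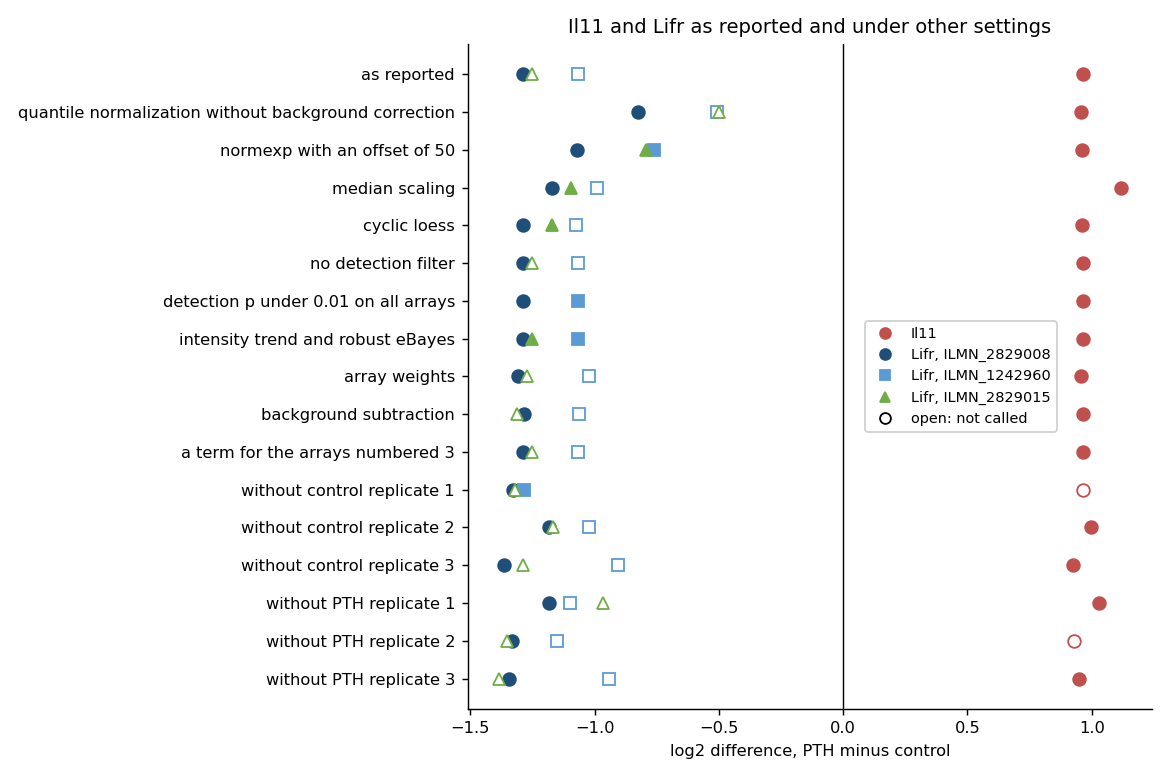
Log2 difference, PTH minus control (horizontal axis), of *Il11* and of the 3 *Lifr* probes as reported, under other processing settings and with each array left out (rows); filled points were called, and the fit with the replicate number as a term, which the closing section gives, is not plotted. *Il11* stayed between 0.92 and 1.12 and the brightest *Lifr* probe between -1.36 and -0.82, and the open *Il11* points among those plotted are the fits without control replicate 1 and without PTH replicate 2.

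The genes whose signal was most like that of *Lifr*, the member with the smallest adjusted p, were found by Pearson's r over the 6 arrays, which share the difference between the groups. They were *Slc7a8*, an amino acid transporter (r = 0.9933), the transcript listed as *AF085738* (r = 0.9913) and *Nkiras2*, an inhibitor of NF-κB signalling (r = 0.9908). *Slc7a8* and *AF085738* fell with PTH, by 0.85 (limma adjusted p = 0.0211) and 0.96 (0.0348) on the log2 scale, and *Nkiras2* had a log2 difference of -0.42 and was not called (limma adjusted p = 0.17).

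Beyond the 10 genes, 63 others of the pathway were listed by role, and 49 of them were tested. None was called higher and 2 were called lower, with a median log2 difference of -0.01 and 23 of the 49 above 0. The groups did not overlap for 13 of the 49, against 21.9% of all genes. The other ligands of the family (6 of 9 tested) had log2 differences from -0.29 to 0.36 with a median of -0.10, and the other receptors (2 of 4) -0.09 and 0.22. The JAK and STAT signalling genes (9 of 12) ranged from -0.58 to 0.20 with a median of -0.01. Some of these are named for their place next to the receptor, a choice made after their values were seen. The kinases *Jak1*, *Jak2* and *Tyk2* gave 0.20 (limma adjusted p = 0.706), -0.29 (0.336) and 0.02 (0.985). *Stat3*, the main transcription factor of the pathway, gave -0.04 (0.922). The lowest value of the list, -0.58, was that of *Stat5a*, which was not called (limma adjusted p = 0.308). The SOCS proteins and other inhibitors (9 of 12) ranged from -0.41 to 0.48 with a median of -0.01. The genes that shed or turn over the IL-6 receptor (5 of 6) ranged from -0.07 to 0.33 with a median of 0.18.

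The called pair came from the genes known as STAT3 targets, where 18 of 20 were tested, 9 lay above 0 and the median was -0.05. The groups did not overlap for 8 of the 18, in both directions, against 21.9% of all genes. *Saa3*, with a log2 difference of -0.59, was not called (limma adjusted p = 0.105). It was called when a detection p under 0.01 on all arrays was required. *Lcn2*, which encodes a siderophore-binding protein of neutrophil granules and other cells, fell by 0.84 on the log2 scale (SE 0.12, limma adjusted p = 0.0173), from 11.26, 11.29 and 11.13 on the control arrays to 10.34, 10.45 and 10.36 on the PTH arrays. *Hp*, which encodes haptoglobin, a binder of free haemoglobin, fell by 0.99 (SE 0.15, limma adjusted p = 0.0211), from 9.01, 8.66 and 8.77 to 7.77, 7.99 and 7.73. The groups did not overlap for either gene. The *Hp* call ended with any array left out (adjusted p, limma, between 0.0549 and 0.092), and *Lcn2* was called without control replicate 3 alone (0.0454, against values up to 0.092 without another array). Neither was called under median scaling, where the log2 differences of *Lcn2* and *Hp* were -0.71 and -0.86, each with an SE of 0.285. *Lcn2* is also on the neutrophil list that follows.

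**Figure D4:**
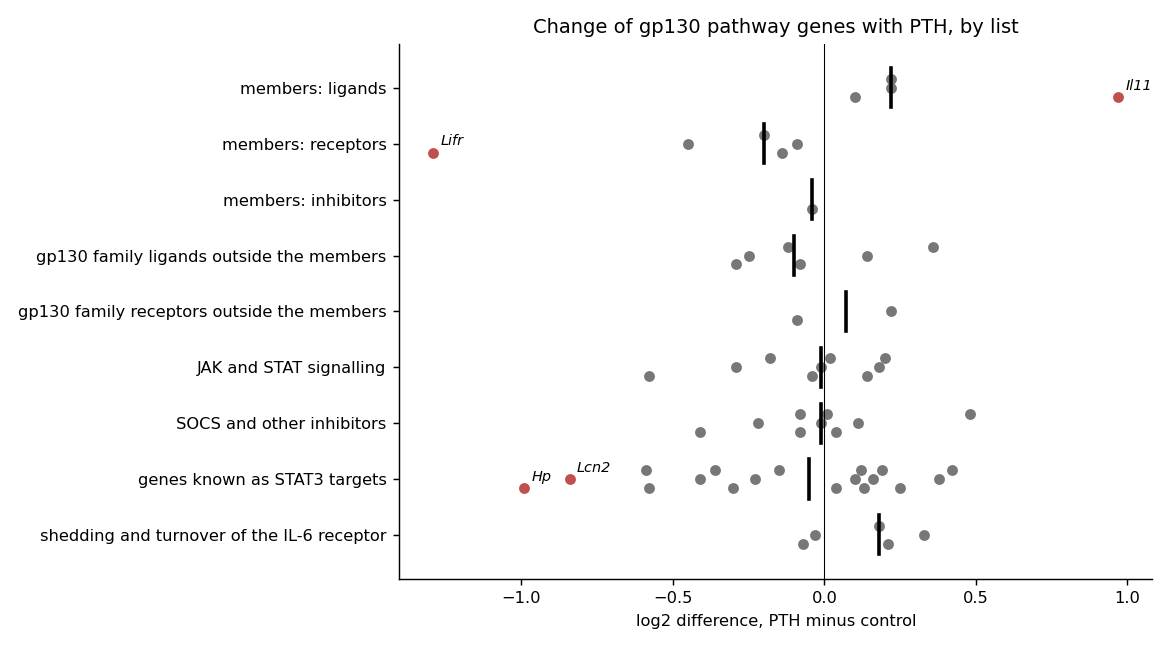
Log2 difference, PTH minus control (horizontal axis), of each tested gene of the 10, by role, and of the other pathway lists (rows), each gene by its brightest probe. Called genes are red and named, and the black bars are the medians, which lie between -0.20 and 0.22.

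Markers of the cell types that bone tubes could hold were read on the same arrays. Of the osteocyte markers 6 of 8 were tested, with *Fgf23* above background on no array. Among those tested 1 was called lower and 1 lay above 0. The log2 differences ranged from -1.21 to 0.70 with a median of -0.95. The summed signal was 9430 to 10700 in control and 7960 to 9070 with PTH. Osteoblast markers (7 of 8 tested) had 2 lower, a median of -0.51 and sums of 35300 to 36400 and 23900 to 25300, with *Runx2* above background on no array. Osteoclast markers (4 of 6) had 3 higher, a median of 0.79 and sums of 11800 to 13300 and 15900 to 20500, with *Calcr* and *Atp6v0d2* above background on none. Neutrophil markers (8 of 9) had 5 lower, a median of -0.78 and sums of 54400 to 55200 and 34800 to 39500, with *Ela2* above background on none. Of the red cell markers 2 of 6 were tested and both were lower (median -1.93, sums of 8640 to 10100 and 2430 to 2700), with *Epb4.2* above background on none, and of the cartilage markers (3 of 5) 1 was lower (median -0.90, sums of 359 to 380 and 251 to 283), with *Matn3* above background on none. None of the markers of macrophages (6 of 7 tested), endothelium (6 of 6) or fat cells (3 of 5) was called (limma). The same held for T lymphocytes (2 of 5), B lymphocytes (1 of 4) and skeletal muscle (1 of 5). The medians of these lists ran from -0.20 to -0.01, and those of B lymphocytes and skeletal muscle rest on 1 gene each. Macrophage markers ranged from -0.80 to 0.39. *Cd3e*, *Cd3g*, *Cd79a*, *Ms4a1*, *Acta1* and *Ckm* were above background on no array. The part of these cell types in the changes of *Il11*, *Lifr*, *Lcn2* and *Hp* was not tested.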

How the data were processed

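RNA from bone tubes cultured without or with PTH was hybridized to Illumina mouse bead arrays, 3 per group, grouped by the sample labels. The authors deposited linear signal intensity per probe, neither normalized nor background subtracted, with a detection p-value from GenomeStudio (version not given), which sets each probe against the negative controls of its array. Their own quantile-normalized values and differential scores were not used, and all deposited columns were mapped. The neqc function corrected background by normexp (negative controls inferred from the detection p-values, offset 16), quantile normalized the arrays and took log2, in limma 3.58.1 under R 4.3.3. The groups were compared by lmFit and eBayes without a block, and p-values were adjusted by Benjamini-Hochberg over every tested probe. The number of arrays limits the precision.

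All probes of the 10 genes are reported, and of the pathway lists the called genes are named. Outside that rule the uncalled pathway genes *Il11ra2*, *Jak1*, *Jak2*, *Tyk2*, *Stat3*, *Stat5a* and *Saa3* are also named. For the member with the smallest adjusted p the 3 most correlated genes are named. Summed signals add the linear normalized signal of the brightest probe of each listed gene. Members and lists were chosen with earlier results of these data known, and some listed markers are not reported here by name. Pathway symbols were matched to older names through RefSeq, which also gave the promoter windows. The fit was tested on simulated data. Alternatives changed the background correction, scaling, detection filter, variance model, array weights, call rule, probe rule, replicate block and arrays kept. Later additions, chosen after seeing the data, were subtraction of the background and a model term for replicate 3 of both groups.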

Additional observations from a re-analysis of the deposited data

How the results depend on the processing

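*Lifr* was called lower under every setting that was run. *Il11* was called higher under every setting except the replicate block and the fits without control replicate 1 or PTH replicate 2. Under that replicate block 0 of the 10 genes were called higher (*Il11*, limma adjusted p = 0.0568), 0 other pathway genes were called and 44 genes over the whole table were called, against 207. Deviations of same-numbered arrays correlated by 0.07, 0.06 and 0.27 and those of differently numbered arrays by -0.14 to 0.07. Not every same-numbered pair was above 0.1, so the numbers were not taken as pairs. With 3 arrays per group, these correlations cannot settle whether the arrays were paired. As a hint from the data and not from the design, the arrays numbered 3 correlated best with each other, and the percent of probes above background went by number, 34.8 and 34.2, 36.3 and 36.1, and 38.4 on both. Leaving out 1 array gave 0 to 1 of the 10 genes called higher and 0 to 1 other pathway genes. Under median scaling every tested probe of the 10 genes, *Lcn2* and *Hp* had the same SE, 0.285. That setting gave 0 other pathway genes, against 2, and 104 genes over the whole table. It moved the median of all genes to 0.12 and turned *Il11ra1* to 0.088 and *Socs3* to 0.114. With 1 array left out, *Il6ra* ranged from -0.27 to 0.016 over the 3 such fits in which its probe passed the filter, and *Lif* probe ILMN_3137287 from -0.097 to 0.12. Over the whole table, an intensity trend with robust estimation called 369 genes, an unadjusted p under 0.05 called 622, and leaving out an array 50 to 95. The cause of these differences was not tested. A slide block was not run, because the files name no slides. Signals near background limit *Il6*, *Osm* and *Il6ra*.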
